A study of Mus musculus with 6 samples.

Results

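The Hedgehog pathway was followed here through 9 genes: the co-receptor Gas1, the ciliary proteins Evc and Evc2, the receptor Ptch1, the signal transducer Smo, the transcription factors Gli1, Gli2 and Gli3, and the ligand-binding inhibitor Hhip. Every probe whose transcript accession maps to one of these genes was taken, which gave 15 of the 39429 probes that were not controls and 9 of the 20659 genes named on the array. The group was selected on measured values: Gas1 and Evc were chosen by the size of their difference between cells of injured and uninjured livers on these same arrays. The differences of the 9 genes are therefore given as a description, without a test.

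Hedgehog proteins are secreted signals that bind the membrane protein Ptch1 together with the co-receptors Gas1, Cdon and Boc. Binding ends the inhibition of Smo by Ptch1, Smo gathers in the primary cilium, and Gli2 and Gli3 are no longer processed into repressors but act as activators, with Gli1, Ptch1 and Hhip among the usual target genes. Evc and Evc2 form a complex near the base of the cilium that binds Smo and passes the signal on, and both genes are named after Ellis-van Creveld syndrome. In the liver the pathway is known for low activity in healthy tissue and for ligand release by injured hepatocytes and bile duct cells, to which stellate and progenitor cells respond.

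Expression was measured on 6 arrays of 1 colour, each with total RNA of cultured cells sorted for the tetraspanin CD63 from adult mouse liver. The DDC injury group had 3 arrays of cells from livers injured by DDC, a porphyrinogenic compound that causes cholestatic injury, and the no-injury group had 3 arrays of cells from uninjured livers. Strain, age, sex and genotype are not given in the sources used here, and the design text speaks of 6 cell lines. Both groups had been grown with serum, HGF, EGF, insulin, transferrin, selenium, nicotinamide and dexamethasone, so the values describe cultured cells. Some cultures, which the labels do not tie to a sample, also received VEGF and bFGF. Some of the numbers of those cultures recur in the names of 2 no-injury files. Which samples received this treatment is not known, so it may not be separable from the group. No label says whether the cultures came from separate animals, and in bulk RNA fewer cells of a type and less RNA per cell cannot be told apart.

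The 75th percentile of the processed signal ranged from 1440.7 to 2270.8 intensity units, 65.0% to 74.8% of the spots were well above background, and no spot was saturated. The array carries 10 copies of some probes, whose scatter gives the spot noise. By that measure replicates 1 and 3 of the no-injury group could not be told apart over 137 bright probes (chi-square of 127.9 on 136 df, p = 0.678), so their mean was used as a single sample. Once dimmer probes were added, for 249 in all, the pair differed (chi-square of 366.4 on 248 df, p = 1.44e-06). The fit therefore set 3 DDC injury samples against 2 no-injury samples, and p-values measure only the spread between these cultures. Scans did not cross the groups: 1 scan held DDC injury replicate 1, another DDC injury replicates 2 and 3, and the third the no-injury arrays, so scan and group cannot be told apart. DDC injury replicates 1 and 2 differed most (SD of the log2 difference 0.751 over probes above background on all arrays), against 0.167 to 0.216 between no-injury arrays. DDC injury replicate 1, on its own scan, stood apart in the markers of stromal, endothelial and blood cells: it was the lowest of the 6 arrays for 17 of the 21 tested markers of those lists.

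The bile duct genes Krt7, Krt19 and Spp1, the hepatocyte regulator Hnf4a and the mesothelial gene Msln, picked after their values were seen, were well above background on all 6 arrays. Of 8 tested cholangiocyte and progenitor markers 4 were lower and 0 higher (0 also at an unadjusted p under 0.05), of 8 hepatocyte markers 3 were lower and 1 higher, and of 5 mesothelial markers 2 were lower and 0 higher (0 unadjusted; limma throughout). Prom1, a progenitor surface protein, fell by 8.69 ± 0.22 on the log2 scale (SE, adjusted p = 0.00107). Apoa1, an apolipoprotein of hepatocytes, was at least 42.5-fold lower in the processed signal (adjusted p = 0.00311), Afp, a fetal hepatocyte protein, rose by 2.86 ± 0.26 (adjusted p = 0.00482), and the mesothelial genes Wt1 and Upk3b fell by 3.30 ± 0.45 (adjusted p = 0.0113) and by at least 5.44-fold in the processed signal (adjusted p = 0.0283). Both bounds are nominal, taken against the lowest signal called well above background on each array, above which some signals were not called. The sizes also rest on the background correction. With normexp the log2 differences were -2.69 for Apoa1, -0.94 for Wt1 and -0.67 for Upk3b, which then did not pass (adjusted p = 0.14). In the authors' deposited values they were -3.56, -1.55 and -1.35, so neither bound holds under those corrections. Prom1 differed by -6.56 with normexp and by -7.33 in the authors' deposited values. Summed over the list, with 1 standing for the array's 75th percentile, bile duct markers lay at 51.14 to 56.35 in the DDC injury arrays and at 64.29 to 65.98 in the no-injury arrays, hepatocyte markers at 11.8 to 18.8 and 29.81 to 34.08, and mesothelial markers at 44.19 to 48.15 and 24.15 to 41.01, the lowest from no-injury replicate 2, where Krt8 has no value. Such sums are linear and rest mostly on the brightest genes of a list, Msln and Krt8 in the mesothelial list. In the hepatocyte list these were Hnf4a and, in the no-injury arrays, also Ttr. No marker of these 3 lists was below background on every array.

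Of stellate cell and fibroblast markers, the cells in which Hedgehog signalling is best known in liver fibrosis, 1 of 10 tested was higher and 0 lower (0 unadjusted): Pdgfra, a growth factor receptor, rose by 2.49 ± 0.42 (adjusted p = 0.0186). Pdgfra was well above background on 2 of the 3 no-injury arrays. Its difference was 1.06 with normexp and 1.45 in the authors' deposited values. The summed level of the list was 0.35 to 1.36 in the DDC injury arrays and 0.47 to 0.66 in the no-injury arrays, and Des, Reln and Hand2 were on none of the arrays well above background. None of 6 endothelial markers passed (0 unadjusted; summed level 0.17 to 0.59 against 0.54 to 0.81) and none of 5 macrophage and leukocyte markers (1 lower unadjusted; 0.10 to 0.49 against 0.40 to 0.63), with Clec4f never above background. Left out of the fit, DDC injury replicate 1 changed these counts, an alternative added after its levels were seen: 3 of 10 stellate cell and fibroblast markers were then higher, Pdgfra, Pdgfrb and Col1a1, 1 of 5 macrophage and leukocyte markers was lower, Csf1r, and still none of 6 endothelial markers passed (limma, 1 lower unadjusted). In the same fit 5 hepatocyte and 3 mesothelial markers were lower. The summed levels of DDC injury replicate 1 were 0.35 for the stellate and fibroblast list, 0.17 for the endothelial list and 0.10 for the leukocyte list, the lowest of all arrays in each. The part of these markers in the differences below was not tested. Without no-injury replicate 2, when 1 no-injury sample is left and assumed to vary like the others, Afp (adjusted p = 0.0747), Wt1 (0.106) and Pdgfra (0.129) no longer passed, and without DDC injury replicate 3 neither did Pdgfra (0.0554) nor Upk3b (0.0589). With the scan as a random block Pdgfra did not pass either (adjusted p = 0.0826).

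Of the 15 member probes, 10 entered the fit, which asked for a signal well above background on 3 or more of the 6 arrays, and they cover 8 genes. Of these probes, 5 met that mark on all 6 arrays, and they belong to Gas1, Ptch1, Smo and Gli3. In the fit over all 27441 probes, 29.3% were called at an adjusted p under 0.05, of which the higher ones in DDC injury make 15.5% and the lower ones 13.8%. In 61.1% the arrays of the groups did not overlap, 29.6% higher and 31.6% lower. Among the 10 member probes 2 were called higher and 4 lower, and the arrays did not overlap in 9, of which 4 were higher and 5 lower. Nothing is read from these counts, because the same contrast had chosen Gas1 and Evc and because a probe seen in 1 group only passes the background filter through that group. Over the 10 probes the median size of the difference was 1.94 on the log2 scale, against 0.53 over all probes tested. Nothing is read from these medians either, for the same reasons. Without DDC injury replicate 1 the log2 differences described below were 4.94 for Gas1, -8.23 for Evc, -7.34 for Evc2, -2.53 for Gli1 and 2.55 for Gli3, on the brightest probe of each.

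**Figure D1:**
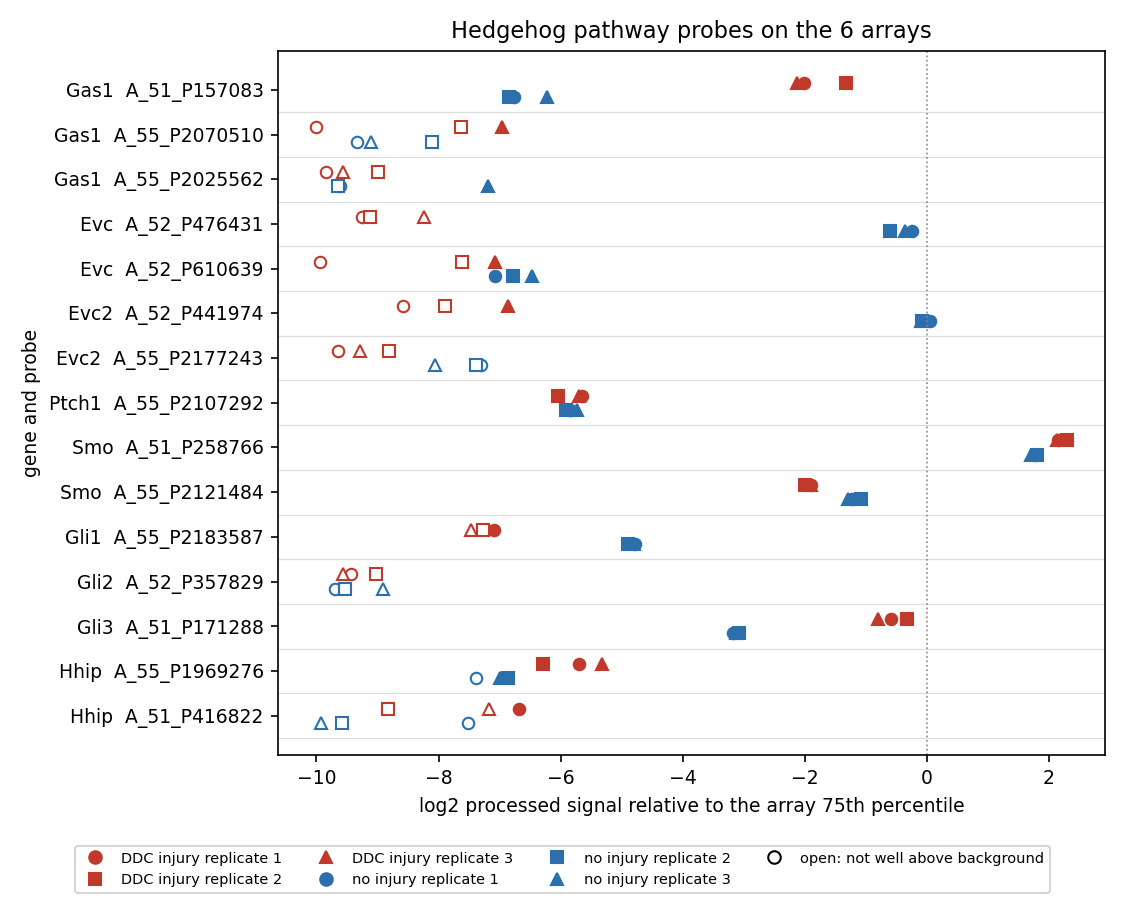
Signal of each of the 15 member probes on each array, as log2 of the processed signal relative to the array's 75th percentile (dotted line at 0); red is DDC injury, blue no injury, shapes are replicates, and open symbols were not well above background. The brightest probes of Gas1 and Gli3 lie higher in red, those of Evc, Evc2 and Gli1 higher in blue, and Ptch1 overlaps.

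Gas1 is a GPI-anchored surface protein, first found as a gene of growth-arrested fibroblasts, that helps Hedgehog ligands reach Ptch1. Its probe A_51_P157083 gave processed signals of 562.3, 571.4 and 361.6 on DDC injury arrays 1 to 3 and of 19.1, 19.1 and 28.4 on no-injury arrays 1 to 3. Every DDC injury array was far above every no-injury array, although the no-injury signals were themselves called well above background. On the log2 scale, with each array's 75th percentile set to 0, its mean was -1.82 ± 0.43 (SD, n = 3) in the DDC injury group and -6.67 ± 0.25 (SD, n = 2) in the no-injury group. The difference was 4.85 ± 0.30 on the log2 scale (SE of the fit, 28.8-fold).

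The size of the Gas1 difference depends on the background correction, since the no-injury signals lie close to the floor of the arrays. It was 3.13 with the normexp correction and 3.81 in the authors' deposited values, and 4.6 to 5.0 when any array was left out. The other probes designed to the same Gas1 transcript showed no such difference. Probe A_55_P2070510 was well above background on 1 array, DDC injury replicate 3, with signals of 2.2 to 12.6 in the DDC injury arrays and 3.2 to 8.0 in the no-injury arrays. Probe A_55_P2025562 was so on 1 array, no-injury replicate 3, with 2.1 to 2.8 against 2.6 to 14.6.

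The promoter windows of Gas1, Evc and Evc2 are shown because these genes had the largest differences among the members. Each runs from 250 bases before to 50 bases after the start, 5′ to 3′ on the gene's own strand, from RefSeq on GRCm38.p6. The Gas1 window is chr13:60177486-60177785, minus strand, with a CCAAT box in capitals; Evc is chr5:37336832-37337131, minus strand, and Evc2 is chr5:37338228-37338527, plus strand, with a stretch that both hold in capitals.
Gas1: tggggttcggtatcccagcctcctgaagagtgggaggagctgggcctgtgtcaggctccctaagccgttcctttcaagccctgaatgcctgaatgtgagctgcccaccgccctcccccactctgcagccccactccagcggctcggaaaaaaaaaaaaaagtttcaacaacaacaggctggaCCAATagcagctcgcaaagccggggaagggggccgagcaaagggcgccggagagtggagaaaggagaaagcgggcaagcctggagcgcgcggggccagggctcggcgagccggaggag
Evc: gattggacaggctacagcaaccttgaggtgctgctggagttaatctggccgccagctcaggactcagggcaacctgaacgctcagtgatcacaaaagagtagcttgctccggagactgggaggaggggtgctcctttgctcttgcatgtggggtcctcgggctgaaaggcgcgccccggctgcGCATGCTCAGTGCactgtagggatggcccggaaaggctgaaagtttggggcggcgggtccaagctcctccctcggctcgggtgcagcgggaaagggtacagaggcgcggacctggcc
Evc2: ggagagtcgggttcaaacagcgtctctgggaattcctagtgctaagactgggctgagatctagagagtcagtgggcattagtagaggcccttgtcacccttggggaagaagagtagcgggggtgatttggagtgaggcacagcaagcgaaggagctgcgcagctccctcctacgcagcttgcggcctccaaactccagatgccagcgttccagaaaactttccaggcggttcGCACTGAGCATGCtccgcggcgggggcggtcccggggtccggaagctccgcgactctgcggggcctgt

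Evc and Evc2 start 1597 bases apart on opposite strands, so the genes run away from each other. The longest stretch that their windows share has 13 bases, GCATGCTCAGTGC in the Evc window and its reverse complement GCACTGAGCATGC in the Evc2 window. Because each window is written on its gene's own strand, both copies read the same way along the chromosome. This stretch occurs on either strand in 10 of 32851 RefSeq promoter windows of the same length (0.0304%), those of Evc and Evc2 included. Its letters were picked from that pair. The CCAAT letters of Gas1 occur on either strand in 37.4% of all windows, and among the members also in that of Evc. Windows were found for 8 of the 9 genes, all but Gli1, and had 61.0% to 76.3% G and C, against a median of 52.7% over all windows.

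The GLI binding consensus GACCACCCA, searched on both strands, was in none of the 8 member windows and in 0.253% of all windows. The GC box GGGCGG was in 7 of the 8, all but Smo, against 35.7% of all windows, and the TATA box letters TATAAA in none, against 13.6%. GC boxes and the other motifs did not overlap in the member windows. These are matches of letters in a short window and show no binding.

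Evc encodes one of the paired proteins of the ciliary complex that binds Smo. Its probe A_52_P476431 gave signals of 3.7, 2.6 and 5.2 on DDC injury arrays 1 to 3, none well above background, and of 1741.2, 1445.8 and 1658.2 on no-injury arrays 1 to 3. The no-injury arrays were all bright and the DDC injury arrays all at the floor. Set against the lowest signal called well above background on each array, Evc was 126-fold lower in the DDC injury group in the processed signal. This is a nominal bound, since some signals above that lowest one were not called. The measured log2 means were -8.88 ± 0.55 (SD, n = 3) and -0.46 ± 0.21 (SD, n = 2).

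Evc2, the partner of Evc in that complex, showed the same arrangement of the arrays. Its probe A_52_P441974 gave 5.9, 6.1 and 13.4 on DDC injury arrays 1 to 3 and 2133.6, 2090.7 and 2007.8 on no-injury arrays 1 to 3. DDC injury replicate 3 was the only array of its group on which this probe was well above background. The log2 means were -7.79 ± 0.86 (SD, n = 3) and -0.05 ± 0.04 (SD, n = 2), a difference of -7.74 ± 0.54 (SE).

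In the authors' deposited values the differences were -5.34 for Evc and -5.36 for Evc2, and with normexp -4.24 and -4.44, so the fold depends on how signal near the floor is treated, and the bound for Evc does not hold there, while the direction was kept. Leaving out an array gave -8.74 to -8.23 for Evc and -8.20 to -7.34 for Evc2; the Evc probe could not be fitted without any 1 of the no-injury arrays, because it was then above background on too few. Each gene has a dimmer probe of the same transcript. Evc probe A_52_P610639 gave 2.3, 7.3 and 11.7 on the DDC injury arrays and 15.3, 20.0 and 24.1 on the no-injury arrays. On the log2 scale its DDC injury replicate 3 and no-injury replicate 1 met at -7.07, and its difference of -1.43 ± 0.94 (SE) was 0.05 with normexp. On none of the arrays was Evc2 probe A_55_P2177243 well above background.

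The genes that flank Evc and Evc2 in the RefSeq order on chromosome 5 were looked at after the values of the pair were seen. Those well above background on 3 or more arrays did not share the differences of the pair. The adjacent genes Crmp1 and Stk32b were too dim to tell. On the side of Evc, Crmp1 was well above background on 1 array of each group and Jakmip1 differed by 3.33, higher in the DDC injury group, while Wfs1 differed by -0.06. No probe was named for Gm1043, which lies between Crmp1 and Jakmip1. On the side of Evc2, Stk32b was on no array well above background, and Cytl1, Msx1 and Stx18 differed by -0.33, -0.93 and 0.00.

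**Figure D2:**
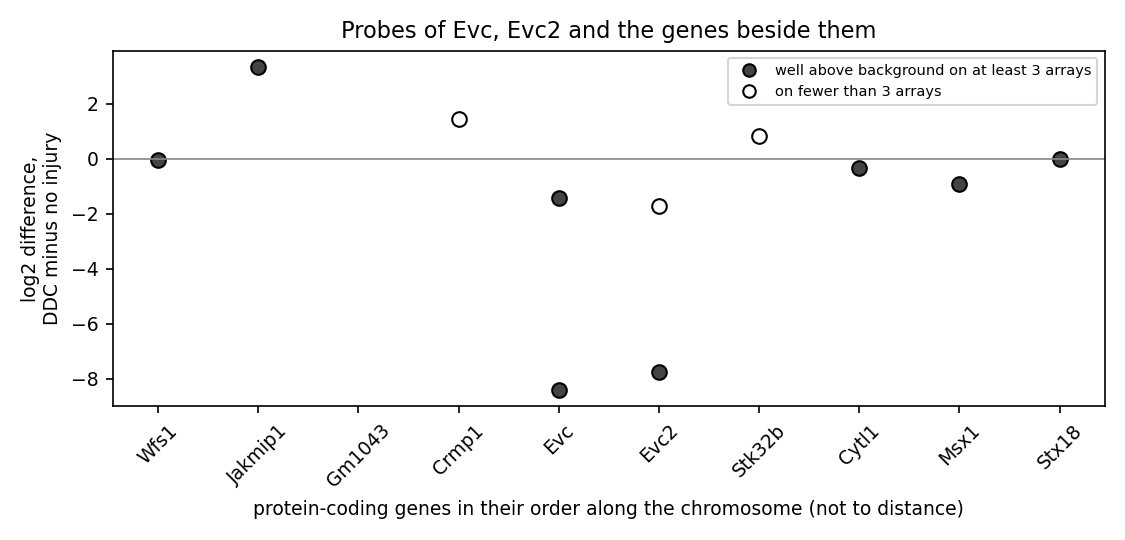
Log2 difference, DDC injury minus no injury, of every named probe of Evc, Evc2 and the protein-coding genes beside them, in their order along the chromosome with equal spacing. Filled points were well above background on at least 3 arrays. The brighter probes of Evc and Evc2 are the lowest points, but Evc was well above background on 0 and Evc2 on 1 of the 3 DDC injury arrays, so their plotted distance from 0 has no exact size.

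Ptch1 is both the Hedgehog receptor and a target gene of the pathway. Its probe gave signals of 45.3, 22.0 and 30.3 on DDC injury arrays 1 to 3 and of 35.7, 36.7 and 40.3 on no-injury arrays 1 to 3. The groups overlapped, with DDC injury replicate 1 the highest and replicate 2 the lowest of all arrays. The difference was 0.06 ± 0.17 on the log2 scale (SE), 0.32 under quantile normalization and -0.02 to 0.18 with an array left out.

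Smo, the seven-pass membrane protein that carries the signal from Ptch1 to the Gli factors, was bright in both groups and its probes disagreed in direction. Probe A_51_P258766 gave 10047.2, 7099.8 and 6926.5 on the DDC injury arrays and 7014.0, 7731.1 and 6960.3 on the no-injury arrays. After scaling to each array's 75th percentile it was slightly higher in every DDC injury array, by 0.42 ± 0.12 (SE) on the log2 scale. Probe A_55_P2121484 gave 610.1, 361.2 and 421.7 against 885.0, 1050.3 and 875.2 and was lower in every DDC injury array, by a difference of -0.77 ± 0.12 (SE). Both kept their sign under the other scalings and background corrections, and the mean of the probes differed by -0.17. The files give the same transcript for both probes, so no direction is given for the gene.

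Hhip binds Hedgehog ligands at the cell surface and keeps them from Ptch1, and is itself a target gene. Its brighter probe gave 43.8, 18.4 and 39.5 on the DDC injury arrays and 12.3, 18.9 and 16.8 on the no-injury arrays, all dim. After scaling, every DDC injury array lay above every no-injury array, with DDC injury replicate 2 nearest to them. The difference was 1.26 ± 0.33 (SE), 0.55 with normexp and 0.65 in the authors' deposited values. The second Hhip probe was well above background on 1 array, DDC injury replicate 1.

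Gli1 is a pathway activator whose transcript is the usual readout of Hedgehog activity. Its probe had log2 levels of -7.09, -7.27 and -7.47 on DDC injury arrays 1 to 3, of which replicate 1 was well above background, and of -4.78, -4.90 and -4.79 on no-injury arrays 1 to 3. The no-injury arrays were almost equal and clearly above background, though dim. The log2 means were -7.28 ± 0.19 (SD, n = 3) and -4.84 ± 0.08 (SD, n = 2), a difference of -2.44 ± 0.16 (SE, 5.41-fold lower). With normexp the difference was -0.52 and in the authors' deposited values -1.01, so its size rests on how the background is removed.

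Gli3, which in the absence of ligand is cut into the main repressor of Hedgehog targets, was higher in the DDC injury group. Its probe gave 1523.5, 1145.4 and 903.9 on DDC injury arrays 1 to 3 and 226.8, 259.9 and 245.2 on no-injury arrays 1 to 3. All 6 arrays were well above background and the groups lay far apart. The log2 means were -0.57 ± 0.23 (SD, n = 3) and -3.12 ± 0.05 (SD, n = 2), a difference of 2.55 ± 0.18 (SE, 5.86-fold). Its size changed little, from 2.26 with normexp to 2.75 under quantile normalization. Gli2, the main activator, was on none of the 6 arrays well above background, with signals of 2.1 to 3.3 in the DDC injury group and 2.5 to 4.5 in the no-injury group.

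**Figure D3:**
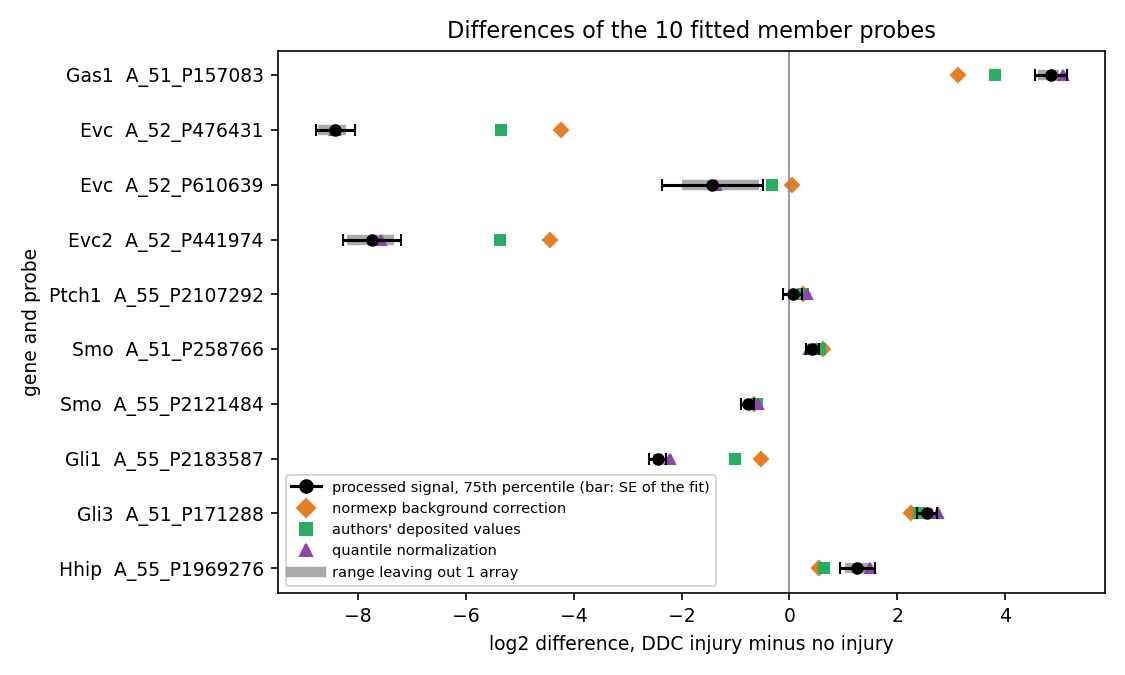
Log2 difference, DDC injury minus no injury, for the 10 member probes in the fit: black points with the SE of the fit, grey bars for the range when 1 array is left out, and coloured symbols for normexp background correction, the authors' deposited values and quantile normalization. Evc, Evc2 and Gli1 move towards 0 under normexp, while Gli3 stays between 2.26 and 2.75.

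Among 14612 genes, those with a profile over the 6 arrays near that of the bright Gas1 probe, by root mean square distance of the centred log2 values, included Vegfd (0.186), Car5b (0.219), Pcdh18 (0.219) and Enpp2 (0.293). Their differences lay between 4.69 and 5.03. On the no-injury arrays Car5b was never well above background, so its difference has no exact size. For the bright Evc probe the same measure picked Cyp2j6, Evc2, Upk1b, Sema5a and Prom1, which are given without distances or order. On the DDC injury arrays Evc and Cyp2j6 were never well above background, Evc2 was so on 1 and Sema5a on 2, so the DDC injury side of these profiles lies near the floor. In these profiles the group difference outweighs the spread within groups, so nearness reflects the size of that difference.

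The other genes of the pathway were taken from lists that do not hold the 9 members. Of 52 genes, 45 were tested; limma, adjusted over all probes, called 3 that rose and 7 that fell with DDC injury, and the median difference was -0.07 against -0.10 over all probes tested. Of all probes 15.5% were higher and 13.8% lower. A gene that stands in more than 1 list is counted once here. With 1 mean of the 3 no-injury arrays 0 rose and 0 fell (2 and 6 at an unadjusted p under 0.05), and without DDC injury replicate 2 the count of genes that rose was 8.

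Among ligands and the proteins that make and release them, 2 of 7 tested genes fell and 0 rose (0 unadjusted). Indian hedgehog, Ihh, a secreted ligand, had log2 levels of -4.41, -3.82 and -4.12 on the DDC injury arrays and of -0.60, -0.71 and -0.60 on the no-injury arrays. The groups were far apart and well above background throughout, and Ihh fell by 3.46 ± 0.21 (SE, limma adjusted p = 0.00232). Hhat, the acyltransferase that attaches palmitate to Hedgehog ligands, fell by 1.93 ± 0.15 (adjusted p = 0.00385). A second Hhat probe differed by -0.78 and did not pass (adjusted p = 0.635), and the mean of the Hhat probes did not pass either (adjusted p = 0.117). Desert hedgehog, Dhh, was well above background on all arrays and differed by 0.42 ± 0.25 (adjusted p = 0.278), and Sonic hedgehog, Shh, was on none of the 6 arrays well above background.

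Of 6 tested co-receptors and ligand-binding proteins, 1 fell and 0 rose (0 unadjusted). The co-receptor Cdon, an immunoglobulin superfamily protein, fell by 0.86 ± 0.12 (adjusted p = 0.0117) on its brighter probe, but a dimmer Cdon probe rose by 0.60 ± 0.15 (adjusted p = 0.0448), and their mean did not pass (-0.13, adjusted p = 0.437). Boc, the related co-receptor, differed by 0.56 ± 0.41 (adjusted p = 0.369). Iqce, which anchors the Evc and Evc2 complex at the base of the cilium, fell by 0.64 ± 0.12 (adjusted p = 0.0212), and its partner Efcab7 differed by -0.85 ± 0.30 (adjusted p = 0.107). Unlike Evc and Evc2, Iqce was well above background on all 6 arrays. Iqce no longer passed without DDC injury replicate 3 (adjusted p = 0.0599), with normexp (0.052) or with no background filter (0.0565), and without DDC injury replicate 1 Efcab7 did (0.0423).

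Of 20 cytoplasmic and ciliary regulators, 2 rose and 2 fell. Sufu, which binds Gli proteins and holds them inactive, rose by 0.91 ± 0.12 (adjusted p = 0.0108), and its second probe differed by 0.40 (adjusted p = 0.0532). Spop, the adaptor that sends Gli proteins for degradation, rose by 0.50 ± 0.10 (adjusted p = 0.0291) and its other probes by 0.67 and 0.83. Btrc, the F-box protein of Gli processing, fell by 2.29 ± 0.17 (adjusted p = 0.00341), and by 0.72 on a second probe (adjusted p = 0.0177). Gsk3b, a kinase that marks Gli proteins for processing, fell by 1.16 ± 0.20 (adjusted p = 0.0181) on its brightest probe, while its other probes differed by -0.19 and 0.30 and did not pass (adjusted p = 0.394 and 0.2). Kif7, the kinesin at the cilium tip that controls Gli processing, differed by 0.25 ± 0.35 (adjusted p = 0.632). Spop no longer passed without DDC injury replicate 3 (adjusted p = 0.0778), with the scan as a random block (0.0503), under quantile normalization (0.0569) or with no background filter (0.0841), and without DDC injury replicate 2 Kif7 did (0.57, adjusted p = 0.0299).

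Of 11 tested target genes, 1 rose and 1 fell. Cyclin D1, Ccnd1, which many other pathways also induce, rose by 1.31 ± 0.16 (adjusted p = 0.00872), and the Notch ligand Jag2 fell by 0.53 ± 0.13 (adjusted p = 0.0448). The Jag2 call was lost in 8 of 17 alternatives, among them without DDC injury replicate 1 (adjusted p = 0.0579) or 3 (0.0582), with normexp (0.0555), with the scan as a random block (0.0889), under quantile normalization (0.0978) and with no background filter (0.102). Without no-injury replicate 2, when 1 no-injury sample is left, Ihh differed by -3.52 and passed only at the edge of the threshold. With 1 mean of the 3 no-injury arrays Ihh differed by -3.48 and did not pass. Hhat, Cdon, Iqce, Sufu, Spop, Btrc, Gsk3b, Ccnd1 and Jag2 passed in neither fit.

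Of 40 genes of primary cilium assembly and of its transition zone, the gate at its base, 14 fell and 2 rose. The median difference of the list was -0.41. Of all probes tested 13.8% were lower and 15.5% higher. In a fit of the 22483 probes well above background on all 6 arrays, 3770 were lower and 4532 higher. Tctn2 fell by 1.81 ± 0.13 (adjusted p = 0.00311), Tctn3 by 1.35 ± 0.11 (adjusted p = 0.00389) and Tmem67 by 1.07 ± 0.11 (adjusted p = 0.00626), all membrane proteins of the transition zone. Dync2li1, a light intermediate chain of the dynein that runs along the cilium, fell by 1.56 ± 0.12 (adjusted p = 0.00336). All 40 were tested, and each was well above background on all 6 arrays, which differs from Evc, Evc2 and Gli1. Without no-injury replicate 2, when 1 no-injury sample is left, neither these 4 genes nor the others called in this list passed. In that fit Tctn2, Tctn3, Tmem67 and Dync2li1 differed by -1.85, -1.37, -1.02 and -1.52. The calls of this list were also lost with 1 mean of the 3 no-injury arrays.

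**Figure D4:**
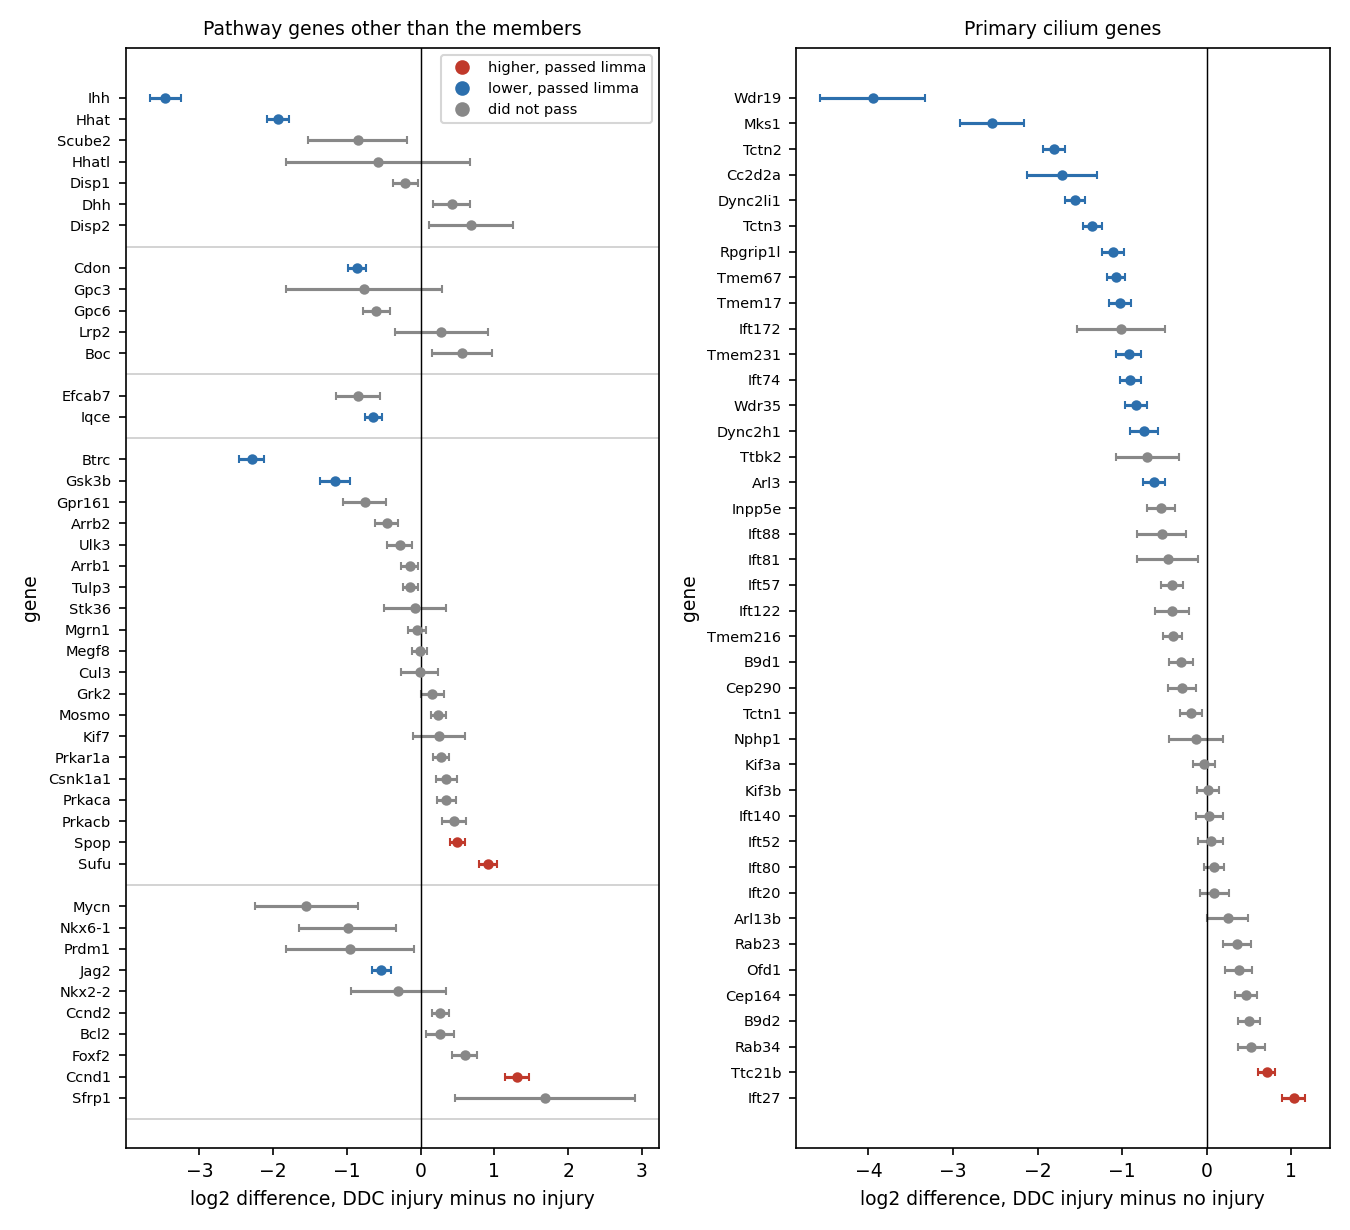
Log2 difference, DDC injury minus no injury, with the SE of the fit, for tested pathway genes that are not members (left, in blocks for ligands, co-receptors, Evc complex partners, regulators and targets) and for primary cilium genes (right). A gene in more than 1 list is not drawn. Red passed limma as higher and blue as lower; in the right panel 14 of 40 are blue and 2 red.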

How the data were processed

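Arrays were 1-colour Agilent arrays of design 026655, labelled with Cy3 per the labels' protocols. Per the file headers, Feature Extraction 11.0.1.1 read each spot's intensity, the processed signal being background-subtracted and detrended by array. The authors deposited a table of log2 values that share their quantiles; the submitters' processing notes name limma, and the column these values started from is not given in the sources used here.

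Outlier spots were dropped, repeated spots averaged, and log2 processed signals taken minus the array's 75th percentile. Probes were named by transcript accession in a RefSeq table of GRCm38.p6 (27234 of 39429 probes); the array's annotation is on mm9, so probes have no coordinates here. The 27441 probes with a signal well above background on 3 or more arrays and 2 or more values per group entered the fit. It was a two-sided limma 3.58.1 fit (R 4.3.3, eBayes) with Benjamini-Hochberg adjustment over all probes and a threshold of 0.05. Its code was tried on simulated data of 3 against 3 arrays, not of 3 against 2 samples. A gene outside the members was called by its brightest probe. No mean spot signal was used: normexp (offset 50) took the median spot and median background signals.

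Members, lists and rules were chosen with earlier results of these data known. Named were all members, from each pathway list the genes past the threshold with the lowest adjusted p, at most 4, plus a fixed set of 10 genes, from each marker list at most 2, and the 5 nearest profiles to Gas1 and to Evc, without clone names and predicted genes; some items under this rule are not reported here. Replicate numbers do not pair the arrays: deviations of same-numbered arrays correlated at 0.165, 0.082 and -0.007. Precision is limited by the number of arrays. Alternatives are given in the closing section.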

Additional observations from a re-analysis of the deposited data

How the results depend on the processing

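Over all probes 4243 were higher and 3789 lower. With 1 mean of the 3 no-injury arrays the counts were 279 and 132, with 1 probe per gene 2761 and 2464, and with probes of a gene averaged 2741 and 2437, the last pairs over fewer features. All 6 arrays as samples gave 6207 and 5933, and no background filter 2956 and 2495. Leaving out 1 array gave 290 to 5490 higher, lowest without no-injury replicate 2, and 104 to 4841 lower. Among the other pathway and cilium genes 5 rose and 21 fell: 10 rose with normexp, 9 in the authors' values, 8 with probes above background on all 6 arrays, 15 with all 6 arrays as samples, and 0 rose and 0 fell with 1 mean of the no-injury arrays (limma, 4 and 17 unadjusted); leaving out 1 array gave 0 to 14 and 1 to 27. Without the cilium genes 3 rose and 7 fell: 7 rose with normexp, 6 in the authors' values, 10 with all 6 arrays as samples, 4 fell with probes averaged, and 0 rose and 0 fell with 1 no-injury mean (2 and 6 unadjusted); leaving out 1 array gave 0 to 8 and 1 to 9. The cause was not tested. With the replicate block over all 6 arrays 4360 probes were higher and 4200 lower, and 5 pathway and cilium genes rose and 21 fell. With the scan as a random block (correlation 0.566) the counts over all probes were 3106 and 2716. Of 21 genes outside the members that the naming rule picks and that passed, 20 no longer did with 1 no-injury mean, all but Prom1, and 17 without no-injury replicate 2, where Ihh and Prom1 still passed and Apoa1 and Upk3b could not be fitted. The median difference over all probes was -0.098, 0.079 with normexp and 0.004 under quantile normalization. Among the called members and the named genes that passed, none changed sign under the alternatives that could be fitted, 13 to 17 each. Signal near background limits the size of the Evc, Evc2, Gli1, Hhip, Gas1, Apoa1, Wt1, Upk3b, Pdgfra and Prom1 differences.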
